A study of Mus musculus with 44 samples.

Results

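The cytochrome P450 family was followed in polyadenylated RNA from mouse kidney. Members were all genes whose symbol is Cyp followed by a digit, apart from Cyp51, Cyp24a1 and Cyp27b1. The rule gave 112 genes of 30284 with a row in the table, 57 in the Cyp2 class, 26 in Cyp4 and 29 in other classes, and 97 of the 112 were annotated as protein coding. Kidneys came from 129SV mice aged 8 to 12 weeks on night-restricted feeding. The mice were wild type (WT) or carried a knockout (KO) of Arntl, also called Bmal1, a gene for a circadian clock transcription factor. The labels name no promoter, Cre line or cell type for the knockout and give no sex. Each genotype was sampled at zeitgeber times (ZT) 0, 4, 8, 12, 16 and 20 h, with 2 libraries, A and B, in each of the 12 groups. Nothing in the labels says that A and B are separate animals, so p-values measure the spread between these libraries. Values are TPM, which is scaled for transcript length and to a fixed total per library, so the sequencing depth is unknown.

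P450 enzymes are haem proteins that insert an oxygen atom into a substrate, with electrons passed on by the reductase Por or, in mitochondria, by Fdxr and Fdx1. Cyp2 enzymes act on drugs, steroids and arachidonic acid, Cyp4 enzymes mostly hydroxylate fatty acids and eicosanoids, and members of other classes handle sterols, bile acids, retinoic acid and steroid hormones. In the mouse kidney, most of this activity is in the proximal tubule, and several Cyp2 and Cyp4 genes are known to differ between males and females. In liver, Cyp2a4 and Cyp2a5 are described targets of the clock output factor Dbp.

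The start-proximal sequences of Cyp2a4 and Cyp2a5 are shown because these genes, with the largest falls in the Cyp2 class, share almost all of it. Each window is the 250 bases before the RefSeq start, from the GRCm38.p6 promoter table, read 5′ to 3′ on the gene's strand. For Cyp2a4 the window was chr7:26306942-26307191 on the plus strand, and for Cyp2a5 chr7:26835089-26835338 on the plus strand. Capitals mark a TATAAA match, which begins 28 bases before the start in Cyp2a4 and 29 in Cyp2a5. When aligned, the windows were identical at 245 of 251 positions (97.61%).
Cyp2a4: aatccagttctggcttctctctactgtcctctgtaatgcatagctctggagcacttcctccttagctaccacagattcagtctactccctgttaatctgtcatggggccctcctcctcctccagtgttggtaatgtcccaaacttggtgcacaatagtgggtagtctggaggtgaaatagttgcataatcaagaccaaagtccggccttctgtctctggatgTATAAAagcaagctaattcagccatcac
Cyp2a5: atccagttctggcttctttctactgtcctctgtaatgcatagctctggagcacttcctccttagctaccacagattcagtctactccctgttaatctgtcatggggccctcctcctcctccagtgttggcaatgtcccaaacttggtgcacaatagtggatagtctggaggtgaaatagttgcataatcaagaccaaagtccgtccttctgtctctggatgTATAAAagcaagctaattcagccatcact

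Cyp2j6 and Cyp4v3 are shown because they were the tested members with an E-box, CACGTG (in capitals), the sequence known to bind Arntl with its partner Clock. Their windows were chr4:96553652-96553901 and chr8:45333164-45333413, both on the minus strand, and the E-box begins 44 and 171 bases before the start.
Cyp2j6: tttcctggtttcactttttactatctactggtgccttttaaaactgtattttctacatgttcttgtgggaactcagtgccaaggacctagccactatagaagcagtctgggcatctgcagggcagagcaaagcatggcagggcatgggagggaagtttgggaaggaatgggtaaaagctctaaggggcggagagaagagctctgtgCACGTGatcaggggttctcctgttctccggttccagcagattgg
Cyp4v3: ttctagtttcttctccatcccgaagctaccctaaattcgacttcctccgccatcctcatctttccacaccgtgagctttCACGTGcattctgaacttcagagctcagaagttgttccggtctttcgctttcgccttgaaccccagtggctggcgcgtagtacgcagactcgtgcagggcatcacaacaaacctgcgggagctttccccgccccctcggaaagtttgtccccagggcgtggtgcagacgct

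Of the members, 75 matched the promoter table, 20 of them among the genes tested. Of these 20 genes, 2 had CACGTG on either strand, against 6.02% of all 32851 windows in the table. The D-box TTANGTAA, bound by Dbp, Tef and Hlf, was in 0 of 20 on either strand (2.06% of all windows). The element TAGGTCA, bound by Nr1d1 and Ror factors, was in 0 of 20 on either strand (2.23%). TATAAA, searched on the gene's strand only, was in 4 of 20, namely Cyp2a4, Cyp2a5, Cyp2e1 and Cyp26b1 (7.59%). These counts describe letters in the window alone.

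In a check of the labels on genes outside the family, 2 libraries stood apart. Arntl RNA was still present in KO, at 4.19 to 6.28 TPM against 0.295 to 12.9 in WT, so its level does not sort every library. Cry1, a clock repressor, was at 1.03 TPM in the library labelled KO ZT4 A and at 11.5 to 17.8 in the other 11 KO libraries, against 0.551 to 6.64 in WT. In the library labelled KO ZT12 A, the summed TPM of 4 Y-linked genes was 3.31, against 53.4 to 69.1 in the other KO libraries and 48.0 to 57.8 in WT. Both were kept under their labels, and for the called members whose extreme KO values they held the change is also given without them.

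The family as a whole made up less of the kidney's RNA in KO. The summed TPM of the 112 members ranged from 3172 to 5290.5 in WT, with a mean of 4244 ± 651 (SD, n = 12). In KO it ranged from 1424 to 3559, with a mean of 2594 ± 637 (SD, n = 12). Of the KO libraries, 9 lay below every WT library, and the 3 inside the WT range were those labelled KO ZT4 A, KO ZT16 A and KO ZT20 B. Without the 2 libraries that stand apart, the KO mean was 2547 ± 603 (SD, n = 10). In these bulk samples, fewer cells of a type and less RNA per cell cannot be told apart.

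**Figure D1:**
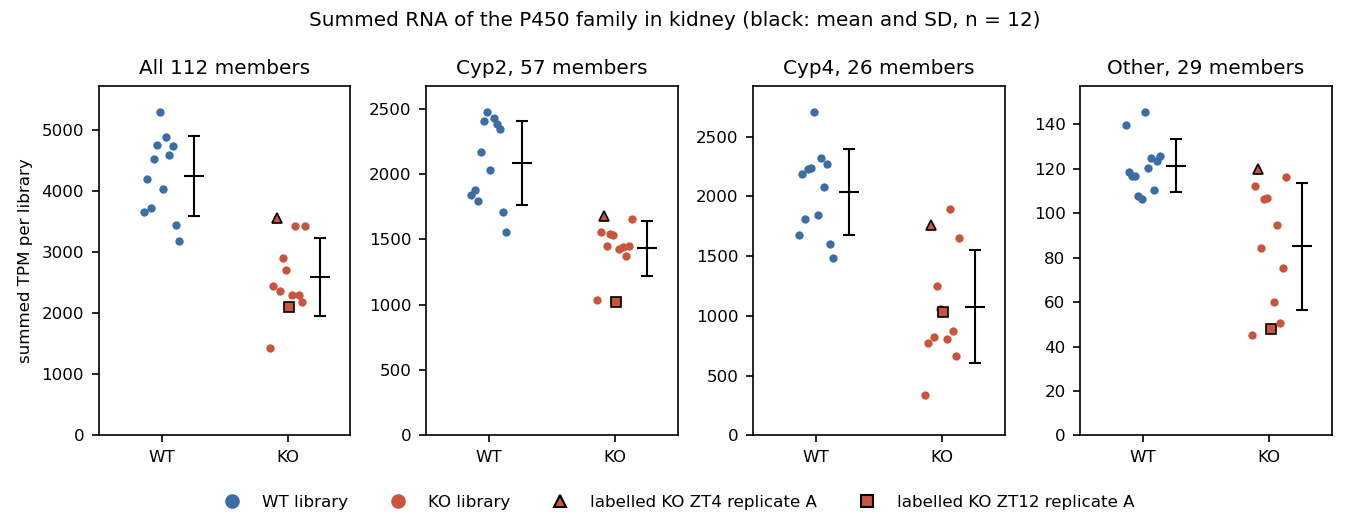
Summed TPM per library for all members and for each class (linear axes from 0), with 1 point per library and the mean and SD in black. For all 112 members, 9 of the 12 KO points lie below the lowest WT value of 3172 TPM.

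In WT, most of the Cyp4 sum was Cyp4b1. The Cyp4 sum was 2038 ± 357 TPM in WT and 1079 ± 476 in KO (SD, n = 12 each), and Cyp4b1 alone held 39.2% of all family TPM in WT and 16.1% in KO. With Cyp4b1 left out, the Cyp4 sum was 373 ± 62.0 TPM in WT and 661 ± 393 in KO, so that the KO mean was the higher one, with a larger SD. The Cyp2 sum was 2084 ± 323 TPM in WT and 1431 ± 208 in KO. Members of other classes summed to 121 ± 11.8 TPM in WT and 85.1 ± 28.4 in KO.

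Of the 112 members, 34 reached a mean of 1 TPM across the 24 libraries and were tested, 17 of them in Cyp2, 11 in Cyp4 and 6 in other classes. A further 68 had some value but a mean under 1 TPM, and 10 were listed at 0 in every library. The lowest mean tested was 1.12 TPM, in Cyp2u1, and the highest left out was 0.988, in Cyp2j7. Of the 34, 26 differed in level between genotypes at an adjusted p under 0.05 (limma, adjusted over 12874 genes), against 60.9% of all genes tested. KO was higher for 15 of them and lower for 11, against 50.9% higher and 10% lower among all genes. All 26 are a share of the genes that passed the filter, not of the family. The pseudogene Cyp4b1-ps1 and Cyp2u1 reached the filter through the genotype where they were higher, the mean of the other being under 1 TPM, and without them 24 of 32 were called, 14 higher and 10 lower.

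The changes of the members were also counted by size. Of the 34, 14 were called with a log2 change of 1 or more in size, 5 higher and 9 lower in KO, against 2.93% of all genes tested (1.45% higher, 1.48% lower). The median absolute log2 change was 0.54 over the 34 members and 0.20 over all genes. The median signed change was 0.11 for members and 0.15 for all genes, most of which were slightly higher in KO as deposited. Under median-of-ratios scaling, which moves the median of all genes to 0.00, 11 members were higher and 12 lower of 34 tested, against 44.1% of all genes (21.5% higher, 22.6% lower). With totals taken without mitochondrially encoded genes, 41 members reached the filter, of which 13 were higher and 13 lower, against 47.3% of all genes (34.3% higher, 12.9% lower).

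By class, 11 of 17 tested Cyp2 genes were called, 7 higher and 4 lower in KO, with log2 changes from -5.33 to 1.77 and a median of 0.02. In Cyp4, 10 of 11 were called, 6 higher and 4 lower, with changes from -5.16 to 4.22 and a median of 0.26. In the other classes, 5 of 6 were called, 2 higher and 3 lower, with changes from -1.51 to 0.39 and a median of -0.07. Changes of 1 log2 unit or more were called for 8 Cyp2 genes, 5 Cyp4 genes and 1 gene of another class. No test between classes was made, because genes of a class are not replicates.

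**Figure D2:**
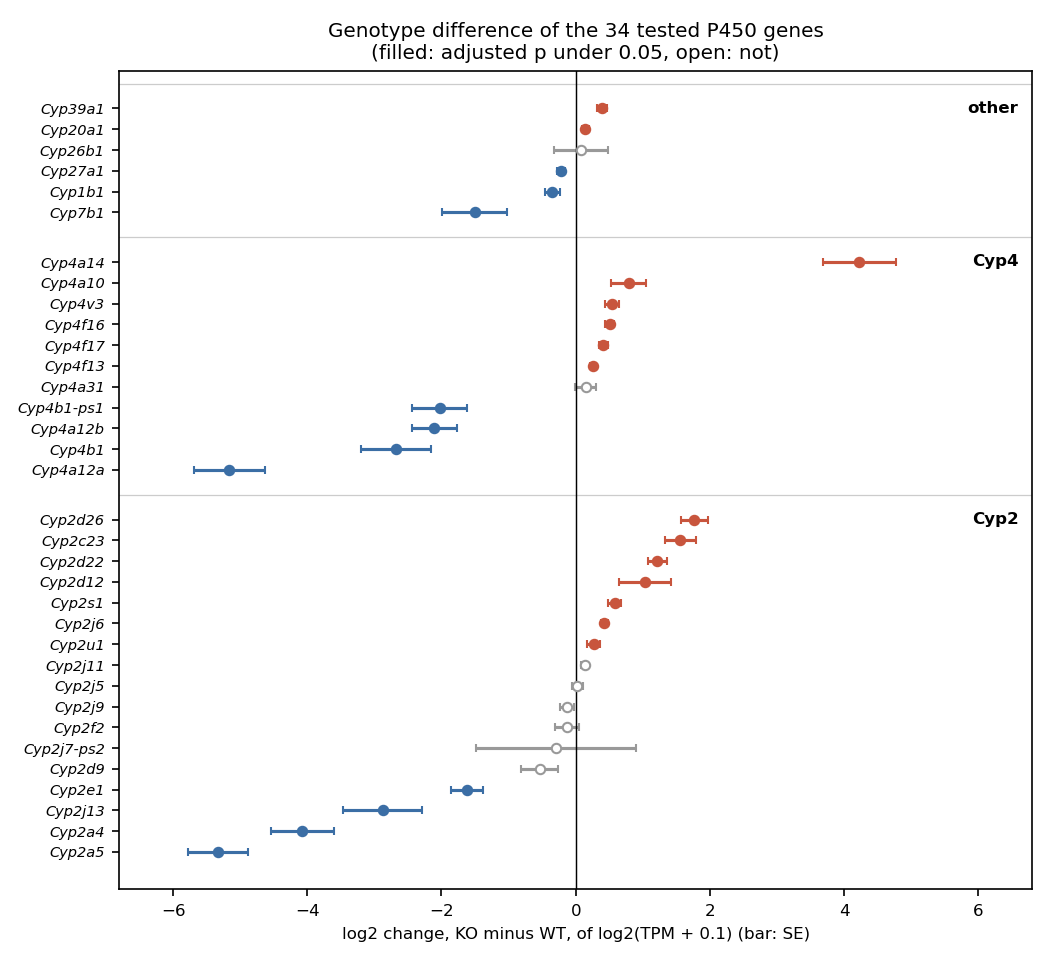
Log2 change (KO minus WT) of log2(TPM + 0.1), with its SE, for the 34 tested members by class. Filled points passed the threshold; the largest fall is Cyp2a5 at -5.33 and the largest rise Cyp4a14 at 4.22.

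The largest falls in the Cyp2 class were in Cyp2a5 and Cyp2a4, which hydroxylate coumarin and testosterone. Cyp2a5 (ENSMUSG00000005547, chromosome 7, 26835305 to 26843548, plus strand) ran from 65.5 TPM through a median of 118 to 250.3 in WT, and from 1.47 through 2.39 to 50.3 in KO. No KO library reached the lowest WT library, and the highest KO value was that of the library labelled KO ZT4 A, with the other 11 between 1.47 and 3.95. Its log2 change was -5.33 (SE 0.44, adjusted p 2.56e-07, limma), a 40.3-fold lower level in KO, with the same sign at 6 of 6 times. Cyp2a5 was the only tested member whose genotypes did not overlap, against 1.67% of all genes (1.42% higher, 0.249% lower in KO).

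Cyp2a4 (ENSMUSG00000074254, chromosome 7, 26307169 to 26315088, plus strand) ran from 169 through 247 to 398 TPM in WT and from 2.82 through 17.1 to 177 in KO. The value of 177 was again the library labelled KO ZT4 A, and the other 11 KO libraries, up to 30.7, lay below all of WT. In the fit, Cyp2a4 changed by -4.08 log2 units (SE 0.47, adjusted p 2.14e-06, limma), and by -4.20 (SE 0.34) without the 2 libraries. The main transcripts of the pair share many 31-base words, 58.1% of those in Cyp2a4 and 58.6% of those in Cyp2a5 being found in another gene, so the split of reads between them is uncertain. Their sum, which does not need the split, was 423 ± 152 TPM in WT and 36.2 ± 61.1 in KO (SD, n = 12 each), or 4.37 to 33.0 in the 10 KO libraries left without the 2 that stand apart.

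Cyp2e1, which oxidises ethanol and other small molecules, was the third most abundant member. It ran from 408 through 686 to 909 TPM in WT and from 63.1 through 229.9 to 487 in KO. The genotypes overlapped through the library labelled KO ZT4 A alone, and the next highest KO library was at 321. Cyp2e1 changed by -1.62 log2 units (SE 0.24, adjusted p 2.04e-05, limma), or 3.08-fold lower (without the 2 libraries, -1.56, SE 0.17). Cyp2j13, of the subfamily that epoxidises arachidonic acid, ran from 66.5 through 119 to 142 TPM in WT and from 0.546 through 26.1 to 89.2 in KO. The lowest KO values were 0.546 TPM in the library labelled KO ZT12 A and 1.21 in KO ZT0 A, and only the library labelled KO ZT4 A, at 89.2, reached the WT range. The log2 change of Cyp2j13 was -2.88 (SE 0.59, adjusted p 0.000494, limma), or -2.67 (SE 0.47) without the 2 libraries.

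In the Cyp4 class, Cyp4b1, which activates several lung and kidney toxins, was the most abundant P450 of WT kidney. Cyp4b1 (ENSMUSG00000028713, chromosome 4, 115624725 to 115647723, minus strand) ran from 1006 through 1771 to 2320.3 TPM in WT and from 17.5 through 322 to 1365 in KO. Of the KO libraries, 11 lay below all of WT, with the lowest values in the library labelled KO ZT12 A (17.5) and in KO ZT0 A (22.8). Its log2 change was -2.67 (SE 0.52, adjusted p 0.000306, limma), or 6.38-fold lower. The log2 change of its pseudogene Cyp4b1-ps1 was -2.03 (SE 0.41, adjusted p 0.000312, limma), or -0.906 with a pseudocount of 1, its mean was 1.81 TPM in WT and 0.502 in KO, and 44.9% of its 31-base words are also in another gene.

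Cyp4a12a, an arachidonate hydroxylase of male kidney, ran from 14.2 through 43.2 to 156 TPM in WT and from 0.246 through 0.956 to 21.8 in KO. Cyp4a12a changed by -5.16 log2 units (SE 0.53, adjusted p 7.71e-07, limma), and by -5.41 (SE 0.42) without the 2 libraries. All KO libraries but the one labelled KO ZT4 A were at 4.15 TPM or less, below all of WT. Cyp4a12b changed by -2.10 (SE 0.33, adjusted p 3.51e-05, limma), from 5.17 ± 2.50 TPM in WT to 1.34 ± 1.21 in KO (SD, n = 12 each). This pair shares 62.2% and 62.9% of its 31-base words with another gene. Its sum was 63.6 ± 45.5 TPM in WT and 4.20 ± 7.11 in KO (SD, n = 12 each), or 0.396 to 5.02 in the 10 KO libraries without the 2 that stand apart, against 26.3 in the library labelled KO ZT4 A. The ratio of the WT to the KO mean was 15.1 with all libraries and 27.6 without those 2.

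The largest rise was in Cyp4a14, a fatty acid hydroxylase induced by the receptor Ppara. Cyp4a14 (ENSMUSG00000028715, chromosome 4, 115486200 to 115496142, minus strand) ran from 1.91 through 8.03 to 37.2 TPM in WT and from 14.4 through 159 to 701 in KO. Of the KO libraries, 11 were above all of WT, and the exception was the library labelled KO ZT4 A at 14.4 TPM. The log2 change was 4.22 (SE 0.55, adjusted p 6.71e-06, limma), an 18.7-fold higher level. Its neighbours had smaller changes in the fit. Cyp4a10 ran from 67.6 through 115 to 199.8 TPM in WT and from 99.3 through 163 to 625 in KO, a log2 change of 0.79 (SE 0.27, adjusted p 0.0170, limma). Only 4 KO libraries of Cyp4a10 exceeded all of WT, 45.5% of its 31-base words are shared, and its call was lost under median-of-ratios scaling (adjusted p 0.0558, limma). Cyp4a31 did not pass, with a log2 change of 0.15 (SE 0.16, adjusted p 0.435, limma) and 146 ± 22.0 TPM in WT against 171 ± 60.6 in KO. Of its 31-base words, 30.3% are shared.

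These 3 genes had their highest KO value in the same library, KO ZT16 A, at 701 TPM for Cyp4a14, 625 for Cyp4a10 and 282 for Cyp4a31. Ppara itself did not pass (log2 change -0.04, SE 0.11, adjusted p 0.767, limma).

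Among the Cyp4f genes, known for hydroxylating leukotrienes, the 3 that were tested rose by small amounts. Cyp4f16 went from 4.15 ± 0.439 TPM in WT to 5.97 ± 0.882 in KO (SD, n = 12 each), a log2 change of 0.51 (SE 0.07, adjusted p 6.41e-06, limma). Of its 31-base words, 38.3% are also in other genes. Cyp4f17 rose by 0.41 log2 units (SE 0.07) and Cyp4f13 by 0.26 (SE 0.04), or by 0.27 and 0.10 under median-of-ratios scaling. Cyp4v3, a hydroxylase of polyunsaturated fatty acids and 1 of the 2 E-box members, rose by 0.54 (SE 0.10), from 1.49 ± 0.265 to 2.22 ± 0.411 TPM. Of its KO libraries, 10 were above all of WT.

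In the Cyp2 class, rises were largest in the Cyp2d subfamily and in Cyp2c23. Cyp2d26 ran from 33.1 through 68.0 to 94.3 TPM in WT and from 86.7 through 212 to 392 in KO. All KO libraries were above all of WT except that labelled KO ZT4 A, at 86.7 TPM. The log2 change was 1.77 (SE 0.20, adjusted p 1.69e-06, limma), or 3.40-fold higher (without the 2 libraries, 1.80, SE 0.17). Cyp2d22 ran from 4.88 through 6.89 to 8.30 TPM in WT and from 5.56 through 16.3 to 27.3 in KO, a log2 change of 1.22 (SE 0.14, adjusted p 1.54e-06, limma) and of 1.29 (SE 0.08) without the 2 libraries. The lowest KO value was again the library labelled KO ZT4 A, and the highest that labelled KO ZT12 A.

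Cyp2c23, an arachidonic acid epoxygenase of the kidney, ran from 8.58 through 10.2 to 15.1 TPM in WT and from 12.0 through 36.7 to 61.5 in KO. The 2 lowest KO values, inside the WT range, were those of the libraries labelled KO ZT4 A (12.0) and KO ZT12 A (14.5). The log2 change was 1.56 (SE 0.23, adjusted p 1.93e-05, limma), or 1.79 (SE 0.18) without those 2, when all KO libraries were above all of WT. Cyp2d12 rose by 1.03 (SE 0.39, adjusted p 0.0304, limma) with 40.5 ± 27.5 TPM in WT and 84.0 ± 49.4 in KO, and 4 KO libraries exceeded all of WT. Its call was lost in fits that left out any of 7 single libraries (WT ZT12 A, ZT16 A, ZT20 A and ZT20 B, and KO ZT0 B, ZT20 A and ZT20 B), with adjusted p-values from 0.0516 to 0.0571 (limma). Of the 31-base words of Cyp2d12, 36.0% are also in other genes, as are 46.4% of those of Cyp2d9. The split of reads is therefore uncertain for both. Smaller rises were in Cyp2s1 (0.58, SE 0.09), Cyp2j6 (0.43, SE 0.05, or 0.28 under median-of-ratios scaling) and Cyp2u1 (0.27, SE 0.10), all on the log2 scale. Cyp2u1 lay at the filter, with a mean of 0.998 TPM in WT and 1.23 in KO. The Cyp2u1 call was lost without WT ZT4 A, WT ZT12 A, WT ZT12 B, KO ZT4 B, KO ZT12 A or KO ZT16 A (adjusted p 0.0504 to 0.0614, limma) and without the 2 libraries that stand apart (0.0564). Cyp2j6, the other E-box member, ran from 8.54 to 11.6 TPM in WT and from 10.7 to 15.2 in KO, where 10 libraries were above all of WT.

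Among the other classes, Cyp7b1, which hydroxylates oxysterols, had the largest change. It ran from 57.2 through 76.5 to 94.3 TPM in WT and from 1.90 through 44.7 to 73.6 in KO, a log2 change of -1.51 (SE 0.49, adjusted p 0.0127, limma) and of -1.32 (SE 0.43, adjusted p 0.0140, limma) without the 2 libraries. Of its KO libraries, 7 lay below all of WT, and the lowest 2 were that labelled KO ZT12 A (1.90) and KO ZT0 A (5.24). Cyp1b1, a target of the receptor Ahr, fell by 0.35 log2 units (SE 0.12, adjusted p 0.0163, limma). Cyp27a1, the mitochondrial enzyme that hydroxylates the sterol side chain, fell by 0.22 (SE 0.06, adjusted p 0.00356, limma), from 26.7 ± 3.18 to 23.0 ± 2.53 TPM. Cyp39a1, another oxysterol hydroxylase, rose by 0.39 (SE 0.07) and the orphan enzyme Cyp20a1 by 0.14 (SE 0.05). Cyp20a1 turned to -0.01 under median-of-ratios scaling, where Cyp39a1 was at 0.24 and Cyp27a1 at -0.37.

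Of the tested members, 8 did not pass. Cyp2j5, the renal epoxygenase of the proximal tubule and the second most abundant member, was at 527 ± 24.3 TPM in WT and 544 ± 94.9 in KO (SD, n = 12 each), a log2 change of 0.02 (SE 0.08, adjusted p 0.830, limma), or 0.10 (SE 0.06, adjusted p 0.125, limma) without the 2 libraries. Its WT values spanned only 494 to 583 TPM, and its KO values 313 to 664, with the lowest in the library labelled KO ZT12 A. Cyp2j11 came close to the threshold (log2 change 0.13, SE 0.06, adjusted p 0.0515, limma) and passed without the 2 libraries that stand apart (0.17, SE 0.06, adjusted p 0.0131, limma). Cyp2d9, a testosterone hydroxylase, was at 96.9 ± 31.1 TPM in WT and 74.4 ± 34.4 in KO (adjusted p 0.103, limma). Cyp2f2, Cyp2j9 and Cyp26b1 had log2 changes between -0.13 and 0.08. The pseudogene Cyp2j7-ps2 was listed at 0 in 8 libraries and reached 23.3 TPM in another.

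**Figure D3:**
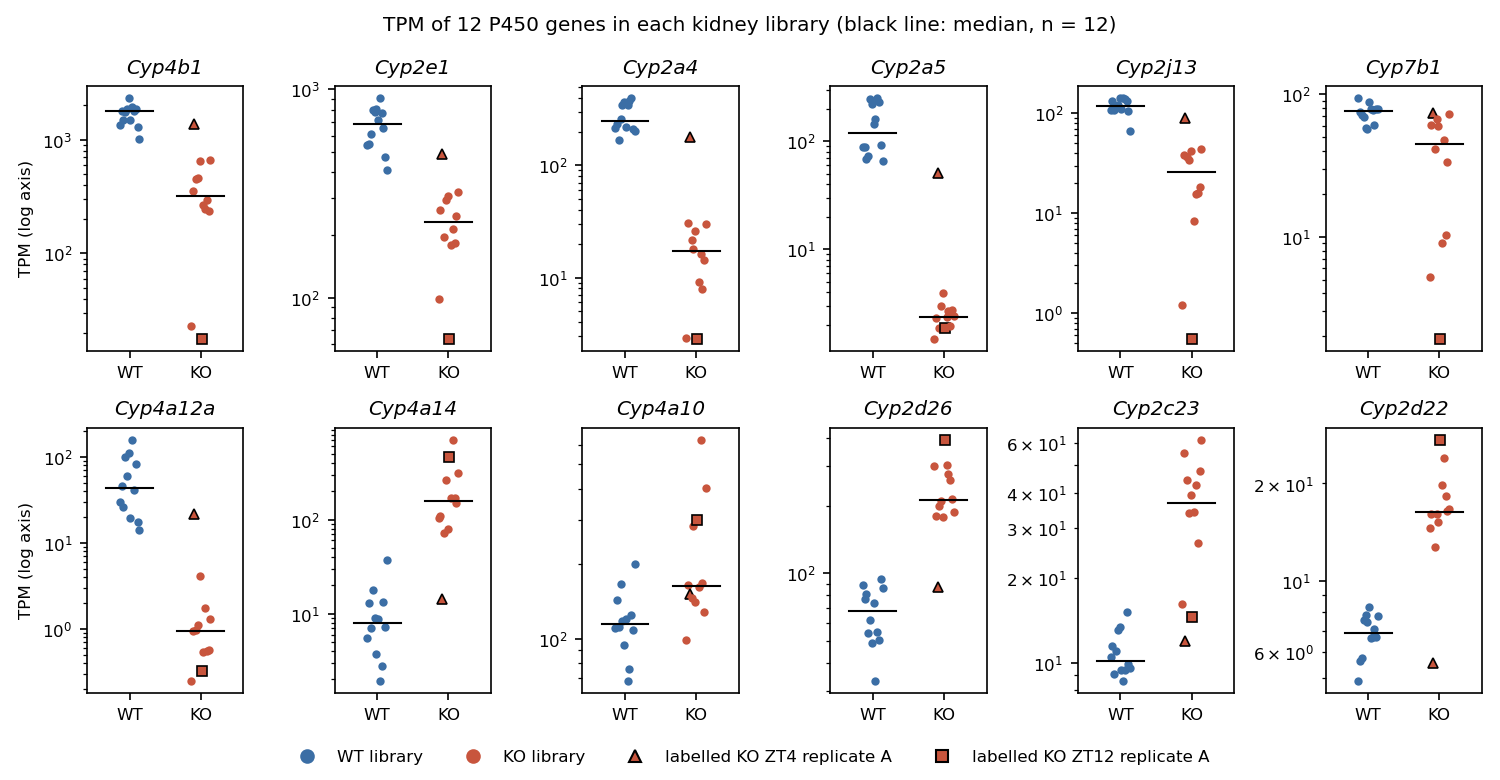
TPM per library (log axes) of 12 members, with the median of each genotype as a line. The triangle, the library labelled KO ZT4 A, lies inside the WT range in 11 of the 12 panels, and the square, that labelled KO ZT12 A, is the lowest point for Cyp4b1, Cyp2e1, Cyp2a4, Cyp2j13 and Cyp7b1.

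The 2 libraries that stand apart often held the extreme KO values. For 25 of the 26 called members, the library labelled KO ZT4 A lay inside the WT range, and for 15 it was the KO library nearest to WT. For 11 of the 26, the library labelled KO ZT12 A was the KO library farthest from WT. KO ZT0 A, whose Y-linked genes were at the level of the others, joined it as the lowest pair for 6 of the 11 members that fell (Cyp4a12a, Cyp2a4, Cyp2e1, Cyp4b1, Cyp2j13 and Cyp7b1). In a fit without the libraries labelled KO ZT4 A and KO ZT12 A, chosen after the data were seen, the count stayed at 26 of 34, 15 higher and 11 lower, against 61.3% of all genes. Genotypes then did not overlap for 11 members, 4 higher and 7 lower in KO, against 10.4% of all genes (8.62% higher, 1.82% lower). In that fit the log2 change was -5.71 (SE 0.17) for Cyp2a5, -2.51 (SE 0.40) for Cyp4b1 and 4.34 (SE 0.48) for Cyp4a14. It was -2.28 (SE 0.32) for Cyp4a12b, 0.60 (SE 0.08) for Cyp4v3 and 0.60 (SE 0.08) for Cyp2s1. For Cyp4f16 it was 0.51 (SE 0.06), for Cyp39a1 0.43 (SE 0.07) and for Cyp2u1 0.20 (SE 0.09).

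Genes known to differ between male and female mouse kidney also changed, on lists chosen with earlier results of these data known. Of 5 genes outside the family that are higher in male kidney (Kap, Slco1a1, Odc1, Slc22a30 and Acsm3), 5 of 5 were lower in KO. Their summed TPM was 32357 to 42680 in WT and 10568 to 37452 in KO. Of 3 that are higher in female kidney (Slc7a12, Prlr and Abcc3), 3 of 3 were higher in KO. Their sums were 4.57 to 23.3 in WT and 7.91 to 190.0 in KO. Over all genes tested, 10% were called lower and 50.9% higher in KO. The library labelled KO ZT4 A held the top KO male-high sum and the bottom KO female-high sum, and that labelled KO ZT12 A the reverse. Without those 2, the KO sums were 15108 to 31657 and 95.6 to 169, and neither list overlapped WT. Of the 4 Y-linked genes, 0 differed between genotypes by limma (0 at an unadjusted p under 0.05), with adjusted p-values from 0.167 to 0.562. The KO spread in that test includes the library labelled KO ZT12 A, whose Y-linked sum was 3.31 TPM, against 54.8 to 69.1 in KO without those 2. The test by itself therefore cannot show whether the genotypes match in sex, which the labels do not give. Taken by library, the Y-linked sum was 48.0 to 57.8 TPM in WT and 53.4 in the library labelled KO ZT4 A. Every library but that labelled KO ZT12 A thus held Y-linked RNA at 48.0 TPM or more. The part of these genes in the P450 changes was not tested. Stat5b, a growth hormone signal transducer, rose by 0.28 log2 units (SE 0.04, adjusted p 1.30e-05, limma).

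**Figure D4:**
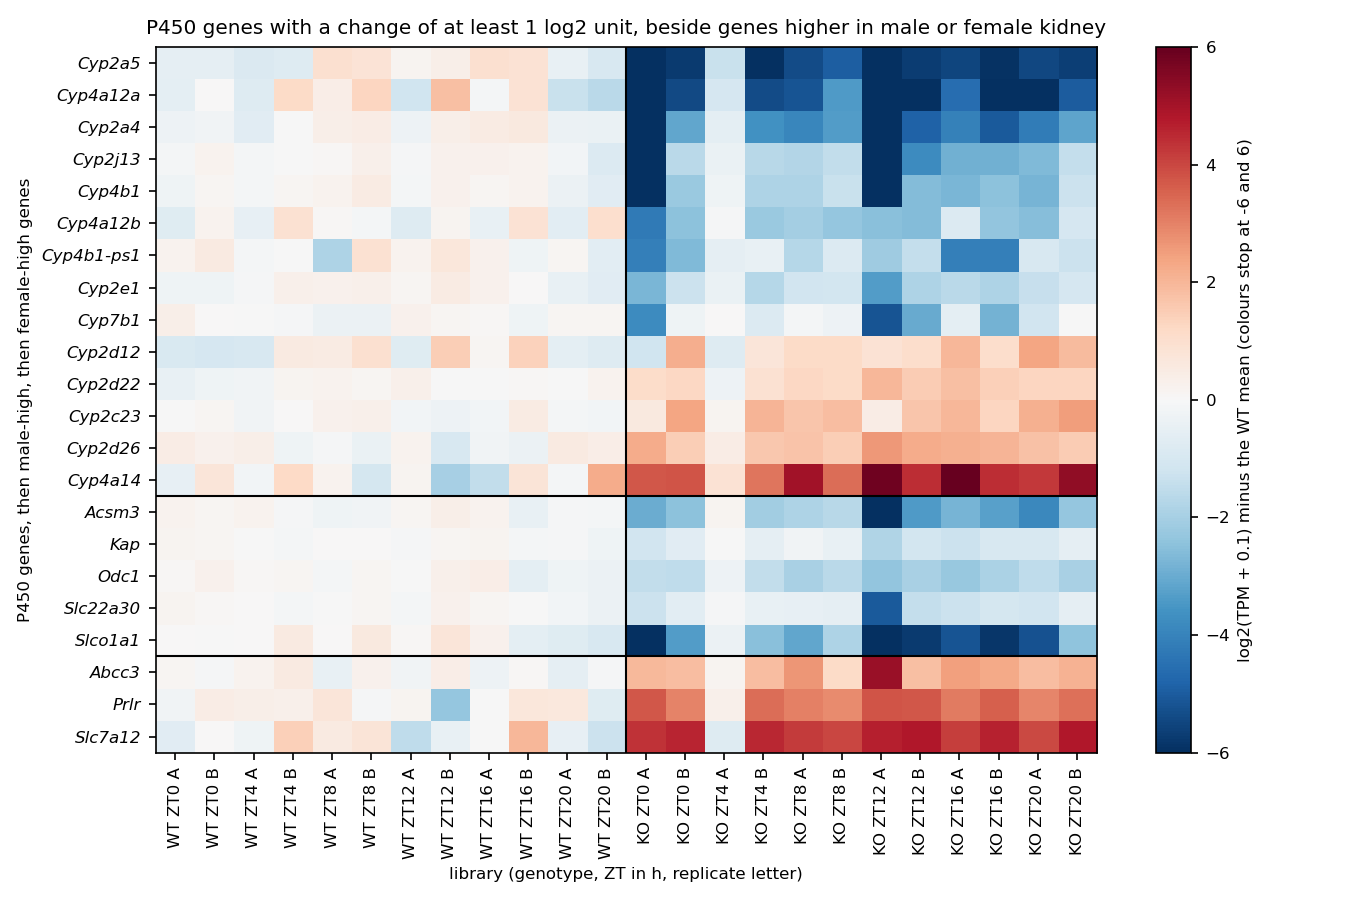
Log2(TPM + 0.1) minus the WT mean in each of the 24 libraries, for the 14 members called with a change of 1 log2 unit or more (top block), 5 male-high genes and 3 female-high genes; colours stop at 6 and -6. The column of the library labelled KO ZT4 A has paler colours than the other KO columns for Cyp2a5 and Cyp4a14, and 6 of the members that fell have their lowest 2 values in KO ZT0 A and KO ZT12 A.

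Markers of the nephron's cell types moved in mixed directions beside these changes. For scale, 50.9% of all genes tested were called higher in KO and 10% lower. Of 8 proximal tubule genes, 3 were higher and 2 lower in KO (Slc22a6 and Slc7a13, both falling), with sums of 2498 to 3021 TPM in WT and 2305 to 3141 in KO. All 4 collecting duct genes and both podocyte genes were higher in KO, with collecting duct sums of 120 to 199 TPM in WT and 152 to 390.5 in KO, and podocyte sums of 17.6 to 30.8 and 30.6 to 42.6. Markers of adrenal cortex summed to at most 6.56 TPM in any library, with Nr5a1 at or near 0, and those of adrenal medulla to at most 1.81. The 6 members that make steroid hormones (Cyp11a1, Cyp11b1, Cyp11b2, Cyp17a1, Cyp21a1 and Cyp19a1) reached at most 0.349 TPM in any library. Of the hepatocyte markers, Alb was lower and Apoa2 and Fga higher in KO, and 3 of 6 did not pass or were too low to test. The 6 summed to 42.7 to 62.8 TPM in WT and to 51.2 to 130 in KO. Without the 2 libraries that stand apart, the KO sums were 73.8 to 130, above all of WT. The part of cell composition in the P450 changes was not tested.

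In 3 of the chromosomal clusters, members of 1 cluster moved in different directions. In the Cyp4 cluster on chromosome 4 (115106323 to 115647723), 7 of 15 members were tested, and 2 were higher, 4 lower and 1 did not pass. Cyp4a14, which rose most, and Cyp4b1, which fell by 2.67 log2 units, both lie there. In the Cyp2j cluster on the same chromosome (96027534 to 96664154), 6 of 13 were tested, with Cyp2j6 higher, Cyp2j13 lower and 4 not passing. In the cluster on chromosome 7 (25802475 to 27158668), 4 of 13 were tested, with Cyp2s1 higher, Cyp2a4 and Cyp2a5 lower and Cyp2f2 not passing. In the Cyp2d cluster on chromosome 15, 3 of 4 tested were higher and Cyp2d9 did not pass, and in the Cyp4f cluster on chromosome 17, 3 of 3 tested were higher. The Cyp2c cluster on chromosome 19 (15 members) and the Cyp3a cluster on chromosome 5 (8 members) held no gene that reached the filter. Cyp2r1, a vitamin D hydroxylase, lies 1.24 Mb from Arntl on chromosome 7 and had 0.867 ± 0.208 TPM in WT and 0.941 ± 0.175 in KO (SD, n = 12 each), below the filter.

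Members below the filter were fitted once without it, over all genes with a value. Of these 68, 9 were higher and 8 lower in KO, and 51 did not pass, against 35.7% of all genes called in that fit (29.2% higher, 6.49% lower). Cyp2b10, the classical target of the receptor Nr1i3, went from 0.440 TPM in WT to 0.0331 in KO, a log2 change of -1.75 (SE 0.29, adjusted p 9.40e-05, limma). The pseudogene Cyp2d37-ps went from 0.138 to 1.48 TPM (log2 change 2.36, SE 0.40, adjusted p 0.000125, limma). Among tested genes of its cluster, Cyp2d26, Cyp2d22 and Cyp2d12 were also higher, and Cyp2d9 was not called (log2 change -0.54). Of the genes beside Cyp2d37-ps, Cyp2d40 was higher (0.42, SE 0.15) and Cyp2d34 did not pass (-0.05, SE 0.13). Cyp3a13 and Cyp4f14 had log2 changes of -0.79 (SE 0.13) and -0.62 (SE 0.12), both called. At these levels a fold change on the log2(TPM + 0.1) scale understates the change, and the depth behind it is unknown. Cyp1a1, an Ahr target, was at 0.247 ± 0.103 TPM in WT and 0.402 ± 0.189 in KO and did not pass (adjusted p 0.0819, limma).

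Among partners of the P450 enzymes, some passed in each direction. Of all genes tested, 60.9% passed (50.9% higher, 10% lower in KO). Of 7 electron carriers, Por (log2 change -0.59, SE 0.09), Cyb5a (-0.44, SE 0.08) and Cyb5r3 (-0.27, SE 0.06) were lower, Fdxr (0.55, SE 0.07) and Pgrmc1 (0.30, SE 0.04) were higher, and Fdx1 and Cyb5b did not pass. Por was also rhythmic in WT (adjusted p 0.00429, limma) and its rhythm differed between genotypes (adjusted p 0.0437, limma). Of 10 genes for haem supply, 2 were higher (Hmox2 and Ppox) and 3 lower, among them Alas1, the rate-limiting step of haem synthesis (log2 change -0.48, SE 0.12, adjusted p 0.00180, limma). Of 20 tested regulators of P450 genes, 8 were higher and 6 lower. Nr1i2, the pregnane X receptor, rose by 0.97 log2 units (SE 0.15), Nr1h4, the bile acid receptor, fell by 0.58 (SE 0.13), and Dbp fell by 1.64 (SE 0.52).

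Rhythm over the day was the second question, asked with a cosine of 24 h fitted in each genotype. In WT, 1 of the 34 members passed, Cyp2j9, against 13.7% of all genes. In KO, 2 passed, Cyp2d22 and Cyp2j9, against 3.64%. The difference in rhythm passed for 0 members by limma (4 at an unadjusted p under 0.05), against 0.629% of all genes. The median swing, the fitted log2 difference between peak and trough, was 0.38 in WT and 0.64 in KO for members, and 0.25 and 0.21 for all genes. A fitted swing cannot be negative and grows with the spread between libraries, and KO here includes the 2 libraries that stand apart. These medians therefore do not show a gain of rhythm in KO. The WT count was 3 without WT ZT12 B and 2 without KO ZT4 A, and the KO count was 1 in 15 of the 24 fits without 1 library and 4 without KO ZT0 A. Without the 2 libraries that stand apart, 3 members passed in WT (Cyp2j9, Cyp2a5 and Cyp4f13) against 19.9% of all genes, and 2 in KO (Cyp4f13 and Cyp4a31) against 4.74%. In that fit the difference in rhythm again passed for 0 members (3 at an unadjusted p under 0.05), against 0.661%, and in the 10 KO libraries left, fitted alone, 0 passed by limma (8 at an unadjusted p under 0.05), against 0.0853%.

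Cyp2j9, another epoxygenase of arachidonic acid, passed in both genotypes. In WT it stood at 3.62 and 4.07 TPM at ZT0, 6.06 and 5.35 at ZT4, 9.66 and 9.19 at ZT8, 6.76 and 8.45 at ZT12, 4.48 and 4.42 at ZT16, and 4.56 and 4.48 at ZT20. Both ZT8 libraries were above all others of WT. Its swing was 1.19 on the log2 scale (SE 0.16), with a peak at 9.16 h (SE 0.51) and an adjusted p of 0.000195 (limma). In KO, Cyp2j9 ranged from 3.54 to 7.61 TPM, with a swing of 0.67 (SE 0.16) peaking at 6.03 h (SE 0.91). That KO call was marginal (adjusted p 0.0485, limma), and it was lost in 19 of the 24 fits without 1 library and in the fit of KO alone (0.173). The WT and KO rhythms of Cyp2j9 did not differ at the threshold (adjusted p 0.135, limma).

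Cyp2a5 had a larger fitted swing in WT, with a larger SE. In WT it was at 88.3 and 88.2 TPM at ZT0, 68.5 and 73.1 at ZT4, 247 and 221 at ZT8, 143 and 161 at ZT12, 250.3 and 228 at ZT16, and 92.7 and 65.5 at ZT20. The 6 libraries from ZT8 to ZT16 were all above the other 6. The swing was 1.64 on the log2 scale (SE 0.80), peaking at 12.2 h, with an adjusted p of 0.333 (limma) when WT and KO share 1 spread. When KO ZT4 A was left out, the adjusted p was 0.0130, and in the 12 WT libraries fitted alone it was 0.0391 (limma). Its partner Cyp2a4 did not pass in WT (0.75 log2 units, SE 0.91).

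Other members passed when the genotypes were fitted separately. In the 12 WT libraries fitted alone, 6 members passed, namely Cyp2j9, Cyp2e1, Cyp2a5, Cyp2d9, Cyp4f13 and Cyp4a32, against 22.1% of all genes in that fit. In the 12 KO libraries fitted alone 0 passed by limma (8 at an unadjusted p under 0.05), against 0.0929% of all genes. Cyp2e1 had WT group means of 440.1 to 813 TPM, lowest at ZT20 and highest at ZT12, and a swing of 0.82 log2 units (adjusted p 0.00741 in WT alone, 0.438 with the shared spread, limma). Cyp4f13, with 0.27 log2 units, had adjusted p-values of 0.0490 and 0.0705 in these fits.

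In KO, Cyp2d22 had a swing of 1.14 log2 units (SE 0.25) with a peak at 15.0 h (SE 0.84) and an adjusted p of 0.0316 (limma). Its KO values were 14.5 and 16.1 TPM at ZT0, 5.56 and 12.7 at ZT4, 16.1 and 15.2 at ZT8, 27.3 and 19.8 at ZT12, 23.9 and 18.2 at ZT16, and 16.5 and 16.7 at ZT20. The lowest and highest of these are the 2 libraries that stand apart, and without them the swing was 0.61 (adjusted p 0.0570, limma). Leaving out KO ZT12 A (0.0559) or KO ZT16 A (0.0594) alone also ended the call. Cyp4a14 had a KO swing of 2.96 (SE 0.88) peaking at 15.4 h that did not pass (adjusted p 0.119, limma), and Cyp2d26 one of 0.95 (SE 0.32, adjusted p 0.179, limma). Without the 2 libraries that stand apart, the swing was 1.94 for Cyp4a14 and 0.41 for Cyp2d26 (adjusted p 0.363 and 0.618, limma).

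**Figure D5:**
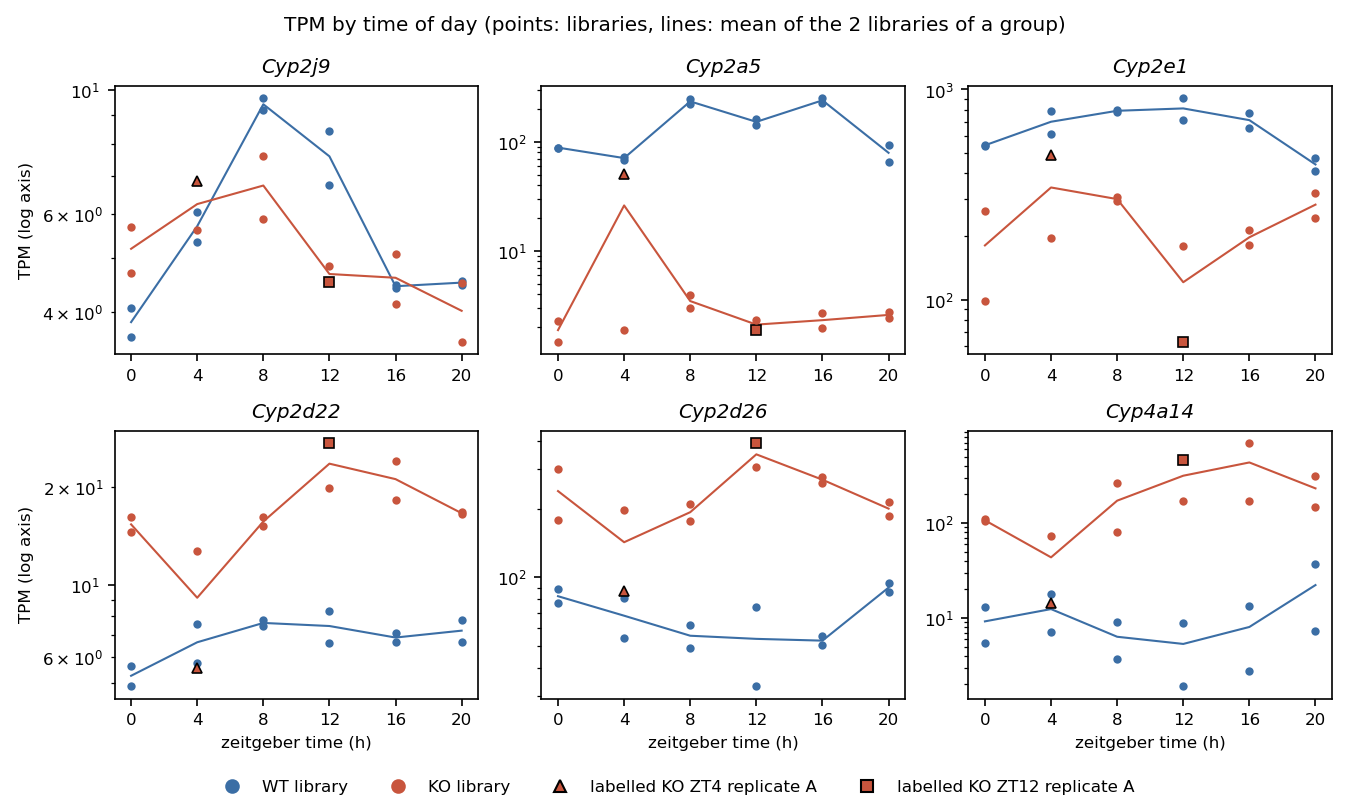
TPM by zeitgeber time (log axes) for 6 members, with each library as a point and the mean of the 2 libraries of a group as a line. Cyp2j9 peaks at ZT8 in WT at 9.66 and 9.19 TPM, and the KO lines of Cyp2a5, Cyp2d22 and Cyp2d26 bend at ZT4 through 1 library, marked by a triangle.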

How the data were processed

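Polyadenylated RNA was measured in 24 kidney libraries. The authors deposited TPM per transcript, estimated with kallisto 0.42.4 and with builds mm10 and GRCm38 named, per the submitters' processing notes. TPM holds no sequencing depth, so counting intervals are not given. Chromatin contact libraries of the series were not used here.

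Transcripts were summed to genes by Ensembl identifier without version (GENCODE M21, GRCm38). Of 88198 transcripts, 2079 matched no gene and were left out (1.35% to 2.24% of the TPM in a library). Values were tested as log2(TPM + 0.1) with limma 3.58.1 in R 4.3.3 (trend and robust options) for the 12874 genes whose mean over all libraries reached 1 TPM, with Benjamini-Hochberg adjustment over all of them and a threshold of 0.05. Fold changes are on that scale and understate the change of low genes. The genotype difference was fitted with the 6 times as levels. Rhythm was fitted as a 24-h cosine and sine per genotype, and its difference as the genotype terms of both, with 1 spread per gene. Genotype tests are two-sided and rhythm tests are F tests, and the scripts for both were tested on simulated data. Groups came from the labels. Promoter windows came from RefSeq (GRCm38.p6), and shared sequence was counted as 31-base words of each gene's most abundant transcript found in transcripts of other genes.

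The members, the gene lists and the tests were chosen with earlier results of these data known. Named genes were the 10 most abundant members, the called members (up to 10 per direction) and a written list by subfamily. Members named below the filter and the comparison of libraries that stand apart were chosen after the values were seen. Alternatives were pseudocounts of 1 and 0.01, no filter or a filter at 5 TPM, 2 other scalings, the replicate letter, eBayes without its options, the time term, each genotype alone and leaving out each library. Results for some genes outside the family are not reported here.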

Additional observations from a re-analysis of the deposited data

How the results depend on the processing

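Of the 26 members called for genotype, 22 kept their call and direction in every alternative run that tested them. The exceptions were Cyp20a1, Cyp2d12, Cyp2u1 and Cyp4a10. The filter at 5 TPM left 26 members to test, so called members with a lower mean, such as Cyp4f17 and Cyp4v3, were not tested there. The count of 26 was 24 to 27 without any 1 library (13 to 16 higher, 11 lower in each), and 43 with no filter (24 higher, 19 lower), where 102 members were tested, against 35.7% of all genes (29.2% higher, 6.49% lower). Cyp4a10 and Cyp2d12 lost the call under median-of-ratios scaling (adjusted p 0.0558 and 0.0753, limma). Cyp2d12 also lost it when scaled without mitochondrially encoded genes (0.0517) and Cyp20a1 under both scalings (0.890 and 0.191). Cyp2u1 lost it under both scalings (0.279 and 0.0994), without a time term (0.0549), without the 2 libraries that stand apart and in 6 fits without 1 library (limma). With a pseudocount of 1, the change of Cyp4b1-ps1 was -0.906 and that of Cyp2u1 0.154. The cause was not tested. Directions reversed for members with no call, and for Cyp20a1: under median-of-ratios scaling Cyp2j5 (-0.13), Cyp4a31 (-0.00307), Cyp2j11 (-0.0189), Cyp20a1 (-0.00779) and Cyp26b1 (-0.0654), and Cyp2j5 also when scaled without mitochondrially encoded genes (-0.0420). Without any 1 library, changes ran from -0.0168 to 0.0908 for Cyp2j5, -0.95 to 0.28 for Cyp2j7-ps2 and -0.14 to 0.23 for Cyp26b1. Among all genes called, 83.6% were higher in KO as deposited, 48.7% under median-of-ratios scaling and 72.6% when scaled without mitochondrially encoded genes, where 13 members were higher and 13 lower.

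The WT rhythm count of 1 was 2 with no filter and under median-of-ratios scaling, 3 when scaled without mitochondrially encoded genes and without the 2 libraries that stand apart, 6 in WT alone, and 1 to 3 without any 1 library. It was 3 without WT ZT12 B and 2 without KO ZT4 A. The KO rhythm count of 2 was 1 with a pseudocount of 1, under either scaling and with eBayes without its options. It was 0 with no filter, with time as a 6-level factor, in KO alone and in the 10 KO libraries left, fitted alone. Without any 1 library it ran from 1 to 4, the highest without KO ZT0 A. The rhythm difference stayed at 0 by limma in every fit (3 to 11 at an unadjusted p under 0.05). Differences between A and B in WT and in KO at the same time had r from -0.09 to 0.15 across genes (over 0.1 at 1 of 6 times). With 1 such difference per genotype and time, and with A libraries among those that stand apart, this does not decide whether the letters pair the genotypes. With the replicate letter as a block, 27 members were called, Cyp2j11 being added (adjusted p 0.0315, limma).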
